A study of Oryza sativa with 16 samples.

Results

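The genes described here are those whose RNA was higher in rice seedlings given abscisic acid (ABA) and also in seedlings given salicylic acid (SA) than in every water control. They were 77 of the 57194 rice probe sets on the Affymetrix rice array (a probe set is a group of short probes that reports on 1 transcript). A probe set was a member if each ABA array and each SA array lay at least 1 log2 unit above the highest of the 4 water arrays and the SA mean was at least 6. The values met this rule for 82 probe sets, and 5 of these were left out because they are annotated to families of heat shock proteins, heat shock factors or glutathione S-transferases (GST1, HSP18.6 with 2 probe sets, HSF01 and CLPB1). The rule would also leave out PP2C, LEA, SWEET, WRKY, bZIP, C3H and bHLH genes, but none of the 82 carried such an annotation. Because the members were chosen by their ABA, SA and water values, their rises under these hormones are given as descriptions with no test. Among all rice probe sets, 1719 met the ABA margin and 232 met the SA margin with the SA mean. The 82 that met both made up 4.77% of the first list and 35.3% of the second.

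The seedlings were of the indica variety IR64, kept in hydroponic culture for 7 days with 14 h of light a day, and then placed for 3 h in water or in 1 hormone. The hormones were ABA, SA, jasmonic acid (JA) and the ethylene precursor ACC at 100 µM, and the auxin IAA and the cytokinin BAP at 50 µM. Each hormone had 2 arrays of separate biological replicates, and water had 2 sets of 2 arrays, control1 and control2, none of which the labels tie to a hormone. RNA came from the seedling without separation of organs, so fewer cells of a type and less RNA per cell cannot be told apart.

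ABA is the hormone of drought and seed maturation. When it binds its receptors, type 2C phosphatases are held back and SnRK2 kinases (called SAPK in rice) become active and switch on stress genes. SA is best known as a signal in defence against pathogens, acting in part through NPR1 proteins (NH1 and its relatives in rice) and TGA factors. In rice, ABA and SA signalling are often described as opposed in defence.

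The median log2 value of an array was 2.94 to 3.09, and replicates correlated with r between 0.987 and 0.992 across tested probe sets. Spike-in transcripts added to the RNA (poly-A controls) did not read alike in all groups. The log2 value of their 5' probes less that of their 3' probes averaged -1.36 for BAP, -1.18 for control1 and -1.15 for IAA. The other groups were closer to 0, with -0.97 for SA, -0.96 for JA, -0.68 for ACC, -0.66 for ABA and -0.62 for control2. On this measure IAA and BAP lay nearest to control1, ABA and ACC nearest to control2, and SA and JA between them, with JA and ACC apart by more than SA and IAA. The hybridization controls, another set of spike-ins, grouped the arrays otherwise. Their mean log2 value was 10.46 in ABA, 10.36 in IAA and 10.4 in BAP, near the 10.32 of control1. It was 11.41 in SA, 12.02 in JA and 11.76 in ACC, nearer to the 11.84 of control2. ABA and SA thus lay on different sides on this measure. The 3' minus 5' difference of actin, a measure of RNA integrity, was 1.39 in ABA and 1.54 in SA, against 0.89 in control1 and 1.36 in control2. It was 0.46 in IAA, 0.76 in BAP, 1.3 in JA and 1.23 in ACC. Both organs were present in the RNA of every group. The mean log2 value of 7 root markers was 8.48 in ABA and 9.86 in SA against 10.99 in control1 and 10.53 in control2, and that of 6 shoot markers was 12.46 and 13.32 against 13.92 and 13.96. The lowest single root marker value was 4.22 for the silicon transporter Lsi2, and that of the shoot markers was 8.29 for PORA, an enzyme of chlorophyll synthesis. The markers did not move alike under ABA. The Lsi2 mean was 5.19 against 11.49 in control1 and 12.47 in control2, but that of HMA5 was 9.26 against 9.66 and 10.04. PORA read 8.51 against 13.25 and 12.23, but CAB2R 15.72 against 15.85 and 16. The marker means thus rest on some markers more than on others. The part of the spike-in differences, of RNA integrity and of organ share in the results below was not tested.

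The members covered a wide range of water levels, with means of the 4 water arrays from 2.21 to 12.45 and a median of 7.42 on the log2 scale. Their median rise was 2.52 log2 units under ABA (range 1.27 to 8.13) and 2.5 under SA (range 1.27 to 7.06). Over all 24100 tested probe sets the median change was -0.07 and -0.01. Both hormones raised 47 members by at least 2 log2 units, and 13 by at least 3. For 6 members all 4 water arrays lay under a log2 value of 5, where the authors' background correction sets much of the value, so the size of their rise depends on the lowest values. In 24 members at least 1 water array lay under 5, which touches the size of their rise as well. The means of the 2 control sets differed by at least 1 log2 unit in 14 members, and the median of control2 minus control1 over the members was 0.04.

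The SA arrays were not alike for these genes. SA replicate 1 was higher than SA replicate 2 in 71 of 77 members, with a median difference of 0.63 log2 units, whereas over the tested probe sets the median difference was 0.02 and 53.6% were higher on replicate 1. The ABA replicates differed by a median of 0.11, with replicate 1 higher in 47 members. Without SA replicate 1 the rule found 93 probe sets, 76 of them among the 77, and without SA replicate 2 it found 124, all 77 among them.

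**Figure D1:**
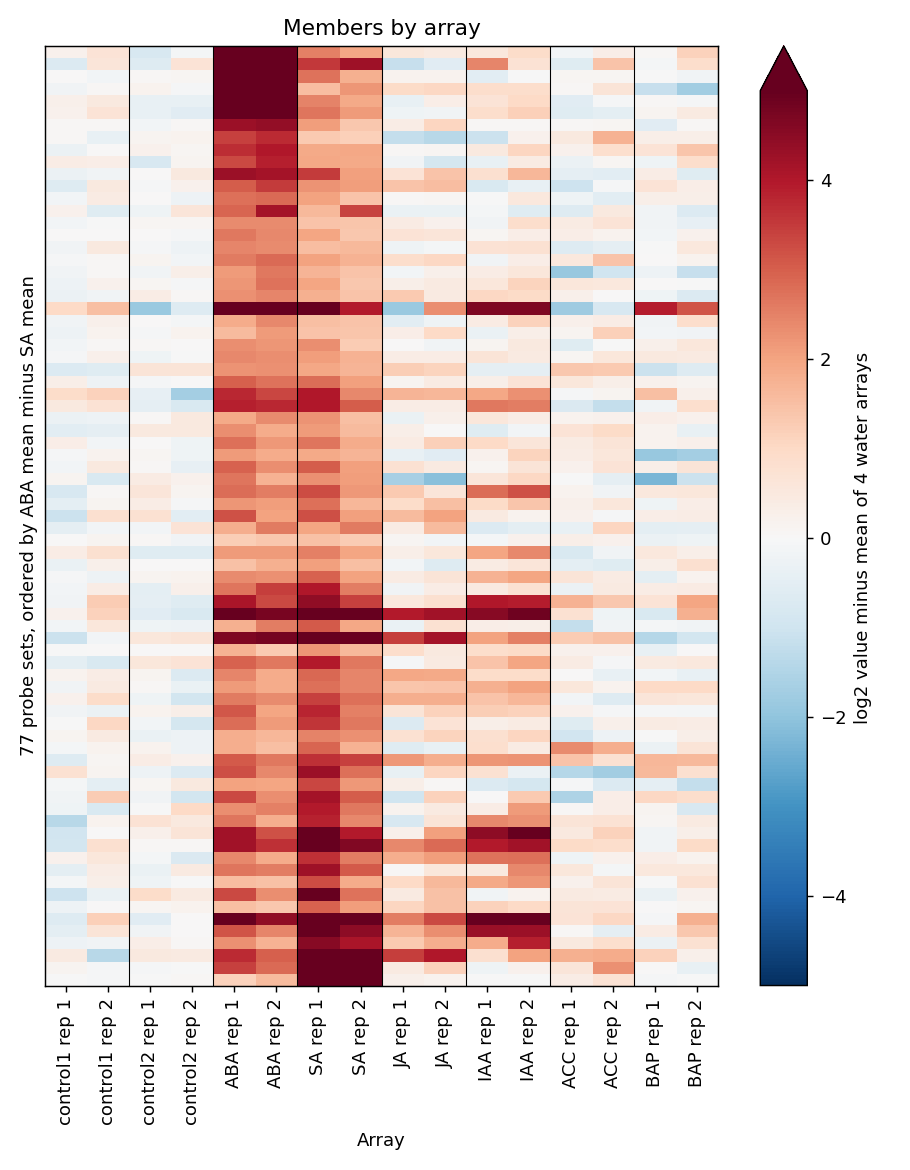
Log2 value minus the mean of the 4 water arrays (colour, in log2 units, values above 5 in the darkest red) for the 77 members (rows, ordered from the largest ABA minus SA difference at the top to the lowest at the bottom) on each of the 16 arrays (columns, 2 replicates a group). The ABA and SA columns are red throughout because the rule chose them so. Many rows are also red on the IAA arrays and fewer on the JA arrays, while ACC and BAP are pale for most rows.

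Of the 77 members, 55 had 1 gene in the platform annotation, standing for 50 genes, and 22 had none given there. Of these 55, 6 carried a gene name, and 49 were known by a locus or clone alone. Of these 6 named members, AOX1, GLO3, BGLU31 and R1C-Prx encode enzymes of respiration, photorespiration, sugar conjugation and redox balance. LPR1 is named after a multicopper oxidase, and no role is given here for SAT1. The other members are given by locus or probe set, with no role assigned.

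AOX1 (LOC4336874, also listed as AOX1a) encodes alternative oxidase, which lets mitochondrial electrons bypass part of the respiratory chain. Its log2 values were 9.51 and 10.11 in control1, 10.34 and 9.94 in control2, 12.17 and 12.06 under ABA, and 12.72 and 11.63 under SA. Under both hormones it stood a little over 4-fold above the water mean (4.41-fold for ABA and 4.58-fold for SA), and the ABA and SA arrays overlapped. Its JA arrays (10.91 and 11.48) and IAA arrays (10.92 and 11.38) also lay above all water arrays. The limma adjusted p against water was 0.0389 for JA (log2 change 1.22 ± 0.31 SE) and 0.0548 for IAA (1.17 ± 0.31). The JA call was lost without JA replicate 1 (adjusted p = 0.0597) or 2 (0.43), without control1 replicate 1 (0.0838), control1 replicate 2 (0.058) or control2 replicate 2 (0.0531), with no filter (0.0824), against control2 alone (0.0976) and in the fit of the groups compared (0.101).

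GLO3 (LOC4337048) encodes glycolate oxidase, the peroxisomal enzyme of photorespiration that releases hydrogen peroxide. It read 11.06, 11.21, 11.12 and 10.87 on the 4 water arrays, 12.28 and 12.39 under ABA, and 12.54 and 12.33 under SA. This was the tightest of the named genes, with a water SD of 0.14 (n = 4) and rises of 1.27 and 1.37 log2 units that overlapped between the hormones. Its changes against water under the other 4 hormones ran from -0.26 to 0.25, and none passed the test.

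BGLU31 (LOC4347545) belongs to the glycoside hydrolases and in rice is a transglucosidase that moves glucose between phenolic acids and related compounds. It was abundant in water (12.57, 12.9, 12.13 and 12.2) and reached 14.26 and 14.11 under ABA and 14.93 and 14.75 under SA. Both SA arrays lay above both ABA arrays. BGLU31 was also higher under JA (13.2 and 13.55) than under ACC (11.49 and 12.2), by 1.53 ± 0.27 log2 units (limma adjusted p = 0.00899). That call was lost without ACC replicate 1 (adjusted p = 0.0977), without JA replicate 2 (0.124) and in the fit of the groups compared (0.0646).

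R1C-Prx (LOC4344045) encodes a peroxiredoxin, a thiol enzyme that reduces peroxides, of a type known from barley as abundant in embryos and aleurone. It gave the largest ABA rise of all members. The water arrays read 5.23, 5.68, 4.19 and 4.92, the ABA arrays 12.76 and 13.5, and the SA arrays 7.52 and 6.93. ABA thus stood 280-fold and SA 4.66-fold above the water mean, with no overlap between any of the 3 groups. Since 2 of the 4 water arrays lay under log2 5, these folds depend on how the lowest values were corrected. No other hormone changed it past the threshold (adjusted p from 0.324 to 0.927).

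LPR1 takes its name from Arabidopsis, where LPR1 is a multicopper oxidase of the root response to low phosphate. It read 7.54, 7.8, 7.81 and 7.4 in water, 9.44 and 9.16 under ABA, and 10.55 and 9.39 under SA. LPR1 was the member that passed the threshold under ACC, at 10.02 and 9.46, a change of 2.11 ± 0.32 against water (limma adjusted p = 0.0157). The ACC call was lost without ACC replicate 1 (adjusted p = 0.143) or 2 (0.0687), without control1 replicate 1 (0.0503) and in the fit of the groups compared (0.126). JA arrays read 7.03 and 7.25, so LPR1 was lower under JA than under ACC by 2.6 log2 units (log2 change -2.6 ± 0.37, adjusted p = 0.00254).

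SAT1 (LOC4324655) read 10.16 and 10.59 in control1 but 9.2 and 9.2 in control2, then 11.91 and 11.92 under ABA and 12.31 and 11.78 under SA. IAA brought it to the same range, at 11.75 and 12.18. The change under IAA was 2.18 ± 0.36 against water (adjusted p = 0.00521) and 1.76 ± 0.41 against BAP (adjusted p = 0.0415). With the replicate number as a block the adjusted p against BAP was 0.0561, and with no filter 0.0821. It was 0.108 and 0.225 without IAA replicates 1 and 2, and 0.142 and 0.234 without BAP replicates 1 and 2. The call against water was lost without IAA replicate 2 (0.0617) and in the fit of the groups compared (0.122). The gene's other probe set on the array lay near the bottom of the scale, with a water mean of 2.03 and no rise under either hormone. The member probe set, Os.11335.3.S1_x_at, has a suffix that marks probes shared with other sequences. Whether its values come from SAT1 RNA alone was not tested.

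**Figure D2:**
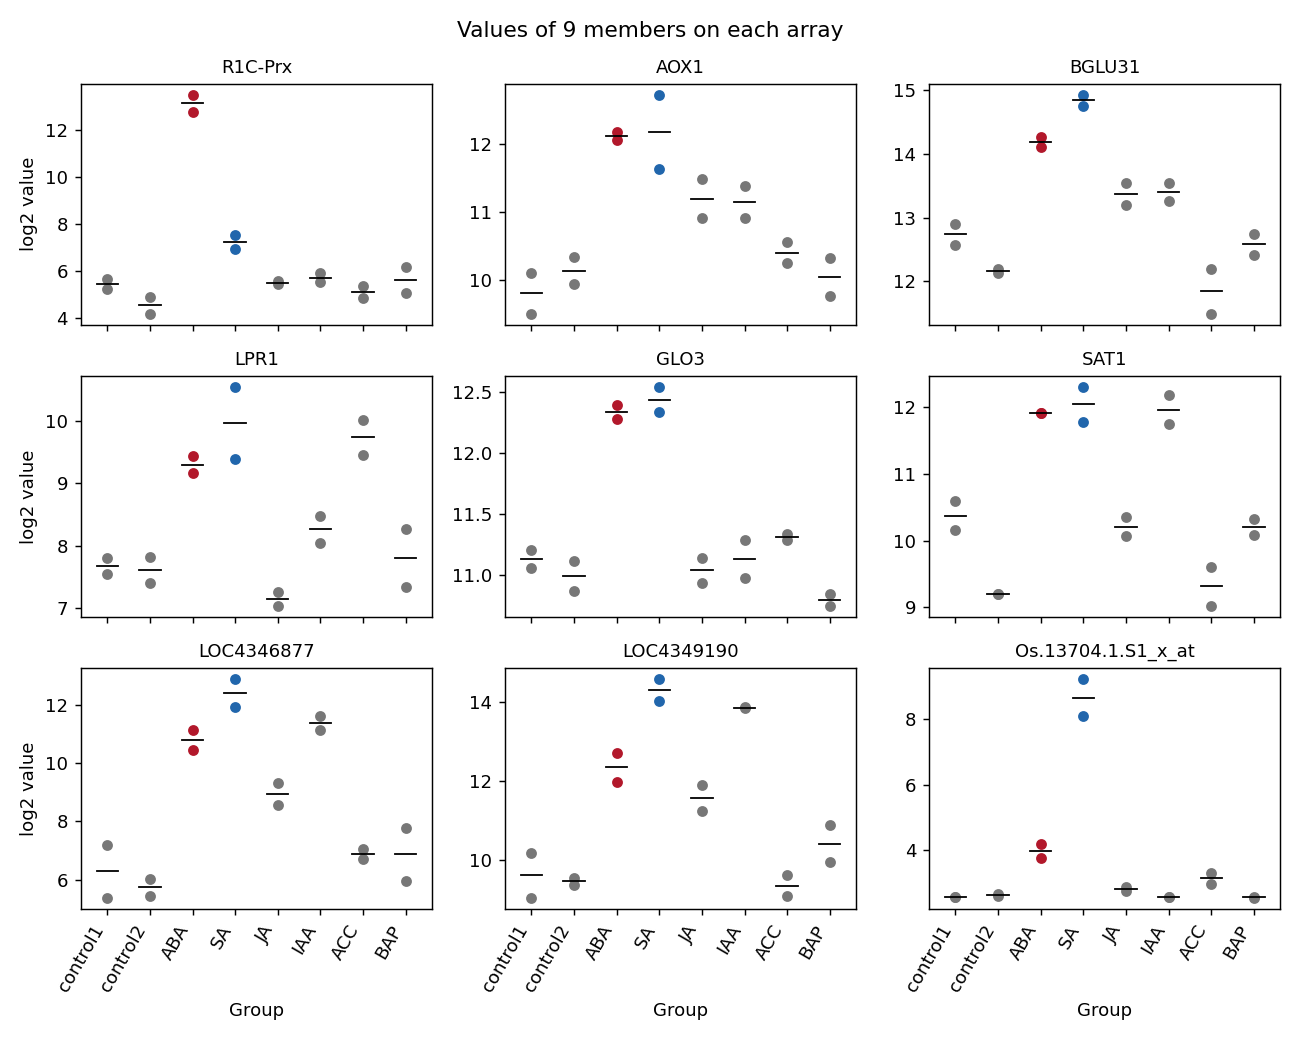
Log2 values on each array (points, 2 a group) with group means (lines) for 9 members, ABA in red and SA in blue, each panel with its own vertical range that does not start at 0. R1C-Prx is far higher under ABA than under SA, Os.13704.1.S1_x_at is the reverse, and LOC4346877 and LOC4349190 are also high under IAA.

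The members with the largest rise under both hormones had no gene name. LOC4346877 read 5.38, 7.2, 5.45 and 6.04 in water, 11.14 and 10.45 under ABA, and 12.88 and 11.93 under SA. It stood 27.4-fold above the water mean under ABA and 83.6-fold under SA. Os.8947.1.S1_at read 8.11, 9.05, 7.33 and 7.15 in water, 13.48 and 12.67 under ABA, and 13.7 and 12.99 under SA, which is 35.9-fold and 43.1-fold. Os.2376.1.S1_at rose by 4.71 and 5.04 log2 units, Os.49030.1.A1_s_at by 3.92 and 4.84, and LOC4330867 by 5.57 and 4.82. The water arrays of LOC4330867 were uneven, at 5 and 5.53 in control1 and 2.18 and 3.37 in control2. LOC4334644 was the last of these 6 members, with 2.63, 3.92, 2.64 and 3.99 in water, 10.28 and 11.44 under ABA, and 6.82 and 7.55 under SA.

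Although all members were high under both hormones, some leaned to one of them. The difference ABA minus SA had a median of -0.06 log2 units and ran from -4.68 to 5.91, and it was under 1 in size in 53 members. Both ABA arrays lay above both SA arrays in 24 members (31.2% of 77, against 30.4% of tested probe sets), and both SA arrays lay above both ABA arrays in 19 (24.7% of 77, against 43.1%). Since the rule used these arrays, nothing is read from these shares. On the ABA side, the difference was 5.91 for R1C-Prx, 3.67 for LOC4334644, 3.46 for LOC4351517 and 3.38 for LOC4339600. LOC4351517 read 4.09, 3.95, 4.15 and 4.18 in water, 9.74 and 9.85 under ABA, and 6.79 and 5.87 under SA. LOC4339600 read from 8.42 to 8.76 in water, 13.64 and 14.04 under ABA, and 10.12 and 10.79 under SA.

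On the SA side, Os.13704.1.S1_x_at and Os.19740.1.S2_at were at the bottom of the scale in water and far from it under SA. Os.13704.1.S1_x_at read from 2.56 to 2.67 in water, 3.76 and 4.2 under ABA, and 9.23 and 8.09 under SA. Its ABA values stayed under 5, so its membership on that side rests on the lowest values of the scale. Os.19740.1.S2_at read from 2.15 to 2.33 in water, 5.64 and 5.05 under ABA, and 9.75 and 8.8 under SA. LOC4346856 and OsAffx.28161.1.S1_at followed, with ABA minus SA of -2.6 and -2.33. LOC4346856 rose to 11.04 and 10.29 under ABA and to 13.49 and 13.03 under SA, from 7.77, 5.92, 7.8 and 7.77 in water.

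**Figure D3:**
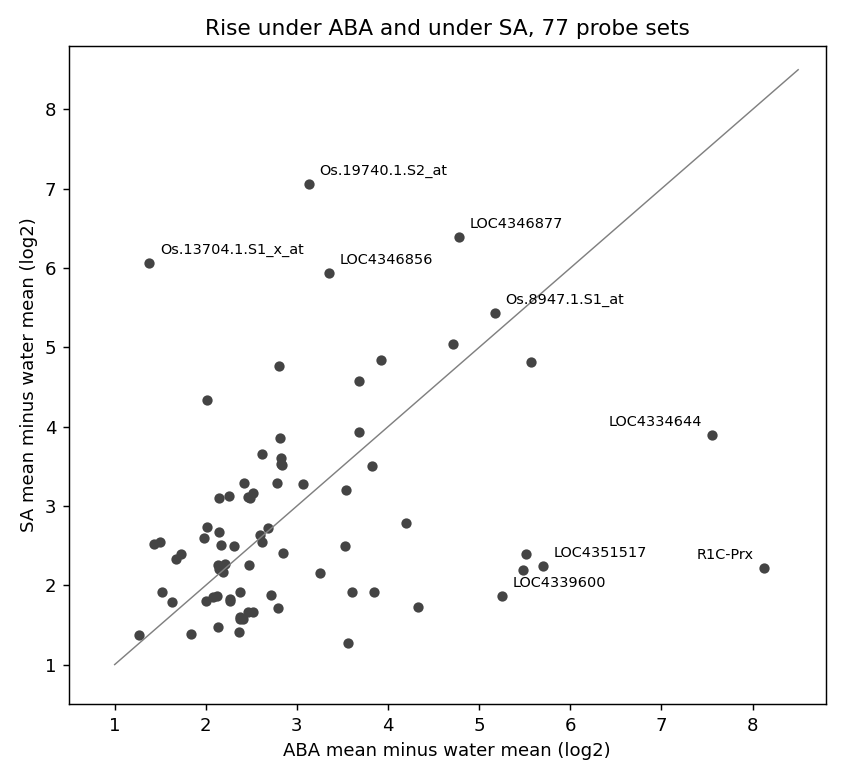
Rise under ABA (horizontal axis) against rise under SA (vertical axis) for the 77 members, each as the mean of 2 arrays minus the mean of 4 water arrays in log2 units, with the line of equal rise. R1C-Prx lies at 8.13 and 2.22 and Os.13704.1.S1_x_at at 1.38 and 6.06, while most members lie near the line below 4 on both axes.

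IAA and BAP arrays played no part in choosing the members, so the mean difference between these hormones lies outside the rule. Its SE and adjusted p do not lie wholly outside it. They draw on the spread of all 16 arrays, among them the water, ABA and SA arrays that chose the members. IAA gave higher values than BAP in 20 of the 77 members and lower values in 0 (limma, Benjamini-Hochberg adjusted p under 0.05 over all 24100 tested probe sets). The 20 are 26% of the members, against 1.57% of all tested probe sets called higher and 1.3% called lower in the same comparison. The median IAA minus BAP difference was 0.68 log2 units over the members and 0.03 over all tested probe sets, and 61 members were above 0. At an unadjusted p under 0.05, 37 members were higher and 1 lower. Shares of all tested probe sets above 0 or past the unadjusted threshold are not given here, so nothing is read from these counts. The count of 20 was lower when any 1 IAA or BAP array was left out, and it was 10 in a fit of the 4 IAA and BAP arrays alone. The shares of all tested probe sets called in those fits are not given here. Whether the loss was particular to the members was therefore not tested.

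Both IAA arrays lay above all water arrays in all 20 of these members, and both BAP arrays lay below all water arrays in 3. The water arrays chose the members, and the shares over all tested probe sets are not given here. These counts are therefore descriptions, and nothing is read from them. LOC4326578 read 11.63 and 12.14 under IAA and 7 and 7.48 under BAP, with water between 6.22 and 7.82. The difference was 4.65 ± 0.64 log2 units (adjusted p = 0.00152), and its IAA arrays lay above both ABA arrays (11.35 and 10.34) and between the SA arrays (12.36 and 11.12). LOC4346877 read 11.12 and 11.61 under IAA against 5.98 and 7.78 under BAP (4.49 ± 0.65, adjusted p = 0.00213, or 0.0671 in the fit of the groups compared). LOC4349190 (Os.2612.1.S1_at) read 13.86 and 13.84 under IAA against 9.95 and 10.89 under BAP (3.43 ± 0.4, adjusted p = 0.00057). At this probe set, IAA lay above both ABA arrays (12.71 and 11.98) and below both SA arrays (14.58 and 14.03). The gene's other member probe set, Os.7794.1.S1_at, read 12.2 and 12.41 under IAA against 11.39 and 11.41 under BAP. Its difference did not pass the threshold (0.91 ± 0.22, limma adjusted p = 0.0547). Os.49030.1.A1_s_at, one of the brightest members, read 14.71 and 14.92 under IAA and 10.54 and 11.7 under BAP (3.69 ± 0.47, adjusted p = 0.000921).

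The 3 with BAP below water were LOC4331076, LOC4339600 and OsAffx.28727.1.S1_at. LOC4331076 read 6.99 and 7.19 under BAP, against water values of 8.84, 9.09, 8.98 and 8.7 and IAA values of 9.13 and 10.02. Its IAA minus BAP difference was 2.48 ± 0.24 (adjusted p = 0.000136, or 0.0622 in the fit of the groups compared) and its change under BAP against water was -1.81 ± 0.21 (adjusted p = 0.0013). LOC4339600 read 7.43 and 6.86 under BAP and 9.45 and 9.46 under IAA, a difference of 2.3 ± 0.26 (adjusted p = 0.000435). OsAffx.28727.1.S1_at read 2.77 and 3.99 under BAP and 5.68 and 6.09 under IAA, with water between 4.31 and 5.47 (2.5 ± 0.45, adjusted p = 0.00923).

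JA and ACC arrays were likewise outside the rule, while the SE and adjusted p again drew on the spread of all 16 arrays. JA gave higher values than ACC in 10 members and lower values in 2, which is 13% and 2.6% of the members, against 1.95% and 1.33% of all tested probe sets. The median difference was 0.4 log2 units over the members and -0.02 over all tested probe sets. Values were above 0 in 55 members, and the share of all tested probe sets above 0 is not given here. The count of members called fell when any JA or ACC array was left out. The shares of all tested probe sets called in those fits are not given here, so whether the loss was particular to the members was not tested.

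Os.8947.1.S1_at gave the largest JA minus ACC difference, with 11.87 and 12.11 under JA and 8.69 and 7.69 under ACC (3.8 ± 0.75, adjusted p = 0.0154). That call was lost without any 1 of the 4 arrays (adjusted p from 0.0555 to 0.148). LOC4344545 read 13.27 and 13.22 under JA and 11.35 and 10.98 under ACC (2.08 ± 0.3, adjusted p = 0.00291). LOC4345988 read 9.44 and 9.57 under JA against 7 and 7.96 under ACC (2.02 ± 0.35, limma adjusted p = 0.00828, or 0.0585 in the fit of the groups compared). That call was also lost without ACC replicate 1 or JA replicate 2. The gene's IAA arrays (7.28 and 7.65) lay below both BAP arrays (8.7 and 8.38). Besides LPR1, the member lower under JA than under ACC was LOC4334643, at 9.54 and 9.37 against 11.23 and 12.47. Its difference was -2.39 ± 0.41 (limma adjusted p = 0.00702, or 0.0614 in the fit of the groups compared). That call was also lost without ACC replicate 2 or JA replicate 2. JA values of LOC4334643 were below all 4 water arrays, which read from 10.36 to 10.93.

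The mean differences of these comparisons share no arrays. Their calls are not independent, since both take the spread of a probe set from the same fit of all 16 arrays. The members that were higher both in JA than ACC and in IAA than BAP numbered 4, which is 40% of the 10 and 20% of the 20. Over all tested probe sets 22 were higher in both (0.0913%). The 4 members were Os.8947.1.S1_at, Os.2376.1.S1_at, Os.2612.1.S1_at of LOC4349190, and OsAffx.2928.1.S1_at. Os.2376.1.S1_at read 10.28 and 10.99 under JA, 8.09 and 8.28 under ACC, 8.86 and 9.36 under IAA, and 5.39 and 5.92 under BAP. Besides its JA against ACC call, Os.8947.1.S1_at lost its IAA against BAP call without IAA replicate 1, IAA replicate 2 or BAP replicate 1. That call was also lost in the fit of the groups compared (limma adjusted p = 0.13). The JA against ACC calls of Os.2376.1.S1_at and Os.2612.1.S1_at were lost without JA replicate 2 (0.165 and 0.148) or ACC replicate 2 (0.0604 and 0.0849), and that of Os.2376.1.S1_at also without ACC replicate 1 (0.101).

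**Figure D4:**
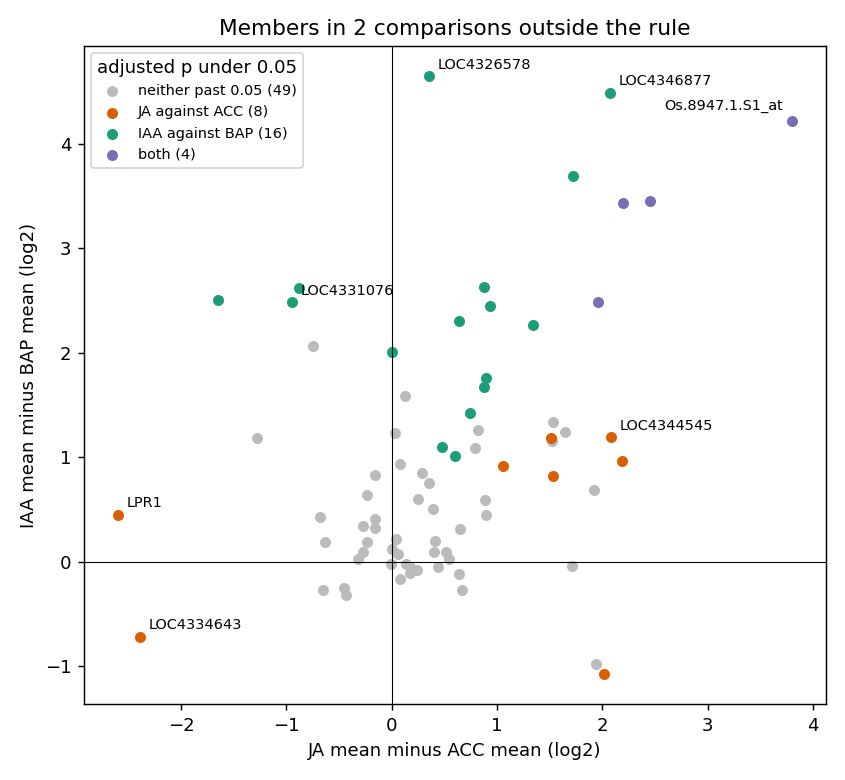
Mean of 2 JA arrays minus mean of 2 ACC arrays (horizontal axis) against mean of 2 IAA arrays minus mean of 2 BAP arrays (vertical axis) for the 77 members, in log2 units, coloured by which comparison passed an adjusted p of 0.05. The 20 members past the threshold in IAA against BAP all lie above 0, and 4 of them also passed in JA against ACC.

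Against water, the other 4 hormones gave unequal counts, but the water arrays here are those that chose the members, so these counts are descriptions. IAA was called higher than water in 24 members and lower in 0 by limma (background 2.4% and 1.74% of tested probe sets), or 44 and 1 at an unadjusted p under 0.05. JA was called higher in 19 and lower in 1 (background 3.09% and 2.87%), the latter being OsAffx.28727.1.S1_at at 3.39 and 2.97. BAP was called higher in 2 and lower in 2 (background 0.817% and 0.469%). The higher ones were LOC9272450 and Os.7794.1.S1_at of LOC4349190, and the lower ones LOC4331076 and LOC4339600. ACC was called higher in 1, LPR1, and lower in 0 by limma (background 0.295% and 0.32%), or 17 and 6 at an unadjusted p under 0.05. These backgrounds are for the adjusted p. Shares of all tested probe sets past the unadjusted threshold are not given here, so nothing is read from the unadjusted counts. Median changes over the members were 0.8 for IAA, 0.51 for JA, 0.24 for BAP and 0.23 for ACC on the log2 scale. LOC9272450 lay above water under every hormone, with 9.08, 9.81, 10.09 and 9.93 in water, 12.79 and 12.35 under ABA, and 13.37 and 13.14 under SA. It read 11.89 and 11.53 under JA, 11.95 and 11.96 under IAA, 11.39 and 11.34 under BAP, and 11.15 and 10.49 under ACC. Its changes passed for JA, IAA and BAP (adjusted p = 0.00133, 0.000503 and 0.0092) and not for ACC (1.09 ± 0.26, adjusted p = 0.0941). The BAP call was lost without BAP replicate 1 or 2, and in the fit of the groups compared (limma adjusted p = 0.154). LOC4346856 read 10.78 and 11.34 under JA, 3.75 ± 0.52 above water (adjusted p = 0.00187), about the level of its ABA arrays.

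Counts against water moved with the control set. Against control2 alone, IAA was called in 38 members (35 higher and 3 lower, with a background of 17.7% and 14.0% of tested probe sets). BAP was called in 16 (10 higher and 6 lower, background 12.6% and 11.4%). Against control1 alone, ACC was called in 17 (9 higher and 8 lower, background 10.4% and 13.5%).

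Several members stood next to each other in the genome. In the gene order of the RefSeq assembly ASM3414082v1, 4 pairs of member genes had no gene between them, and 1 further pair, LOC4330678 and LOC4330680, had 1. The 4 pairs were AOX1 with LOC4336875, R1C-Prx with LOC4344044, LOC4334643 with LOC4334644, and LOC4349188 with LOC4349190. Neighbours did not always have the same profile. LOC4344044 read 12.92 and 12.3 under ABA and 13 and 12.06 under SA, from 9.86, 10.48, 10.04 and 9.58 in water, so it lacked the ABA lean of R1C-Prx. LOC4336875 read 7.5, 7.2, 8.53 and 8.67 in water, 10.91 and 10.6 under ABA, and 11.93 and 10.61 under SA. LOC4330678 rose by 5.51 under ABA and 2.39 under SA, against 2.27 and 1.8 for LOC4330680. Adjacent copies can be alike in sequence, and whether probes of one also bind the other's RNA was not tested.

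Members are also not all separate genes. For 5 genes there were 2 member probe sets each: LOC4327067, LOC4344489, LOC4345877, LOC4347195 and LOC4349190. Members with no gene given can also be paired. Os.25409.1.S1_at and Os.25409.1.S1_x_at share a design number in their names. They rose by 2.46 and 2.82 under ABA and by 3.11 and 3.6 under SA. The rises at the paired probe sets were 2.85 and 2.47 under ABA for LOC4327067, and 3.07 and 2.17 for LOC4344489. The widest gap was in LOC4349190, whose SA rises were 4.76 and 2.59. For LOC4347924, whose member probe set stood 4.33 above water under ABA and 1.72 under SA, the 2 further probe sets stood 3.09 and 3.67 above water under ABA but 0.37 and 0.89 under SA. LOC4329350 was a similar case, with 2.37 under ABA and 1.92 under SA at its member probe set. Its 2 further tested probe sets stood 3.03 and 2.3 above water under ABA but 0.96 and 0.99 under SA, and both missed the rule. Of the 77 members, 11 (14.3%) carried the suffix _x_at, which marks probes shared with other sequences, against 13.3% of tested probe sets.

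The margin of 1 log2 unit has genes close to it on either side. The margin was 1.002 for LOC4330472, 1.012 for LOC4328933 and 1.017 for LOC9272517, the members just inside. Just outside were LOC4334183 at 0.994, LOC4325301 at 0.992 and LOC4337637 at 0.979.

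Known genes of ABA and SA signalling and of the enzyme and regulator families around them were read for comparison, as 15 lists of gene names with 353 tested genes that are not members. ABA was called higher than water in 93 and lower in 102 of them (background 21.2% and 26.9% of tested probe sets), and SA higher in 26 and lower in 16 (background 4.53% and 4.67%). None of the listed genes was a member. Members were 77 of the 24100 tested probe sets, a share at which few or none would fall in a list of this size, so nothing is read from this. The median change of the listed genes was -0.08 under ABA and 0.01 under SA, close to the medians of all tested probe sets (-0.07 and -0.01).

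Among signalling genes, ABA raised 5 and lowered 3 of 10 SAPK kinases, and SA raised 2 and lowered 1. OsSAPK1 rose under both, by 2.49 ± 0.18 (adjusted p = 4.29e-07) and 0.7 ± 0.18 (adjusted p = 0.0291), and OsSAPK2 fell under both (-1.38 ± 0.14 and -0.52 ± 0.14, adjusted p = 1.06e-05 and 0.0431). The 1 listed ABA receptor, OsPYL11, fell under ABA (-0.95 ± 0.14, adjusted p = 0.000167). Of 21 genes of SA signalling and defence, SA raised 2, and ABA raised 5 and lowered 8. NH2, of the NPR1 family, rose under SA (0.89 ± 0.1, adjusted p = 0.000378), and its change under ABA was 0.19 ± 0.1 (adjusted p = 0.143). Of 67 calcium sensors and the kinases they act on, ABA raised 26 and lowered 11, and SA raised 4 and lowered 2. CML8, a calmodulin-like protein, rose under both by 1.96 and 0.62 (adjusted p = 1.95e-07 and 0.00993). Of 31 genes of jasmonate synthesis and JAZ repressors, ABA raised 3 and lowered 16, and SA raised 3 and lowered 2.

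Among transcription factors, ABA raised 3 and SA raised 1 of 6 NAC genes. ABA and SA raised 1 each of 6 ERF and DREB genes, and ABA lowered 1. Of 11 MYB genes ABA raised 2 and lowered 2, and limma called 0 under SA (1 at an unadjusted p under 0.05). Of 36 homeobox genes ABA raised 12 and lowered 10, and SA raised 1. HOX7 rose by 4.78 ± 0.12 under ABA (adjusted p = 6.26e-11) and by 0.03 ± 0.12 under SA (adjusted p = 0.914).

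Among enzymes and transporters, ABA raised 6 and lowered 7 of 26 cytochrome P450 genes, and SA raised 2 and lowered 1. CYP71P1, a P450 enzyme, rose under both by 1.5 and 0.83 (adjusted p = 1.46e-06 and 0.00169). ABA raised 16 and lowered 22 of 67 transporter genes, and SA raised 5 and lowered 4. ABA raised 9 and lowered 14 of 48 glutaredoxin, thioredoxin and peroxidase genes, and SA raised 4 and lowered 4. Of 12 glycosyltransferases ABA raised 1 and lowered 6, and SA lowered 2. Of 9 trehalose and raffinose genes ABA raised 3 and lowered 2, and limma called 0 under SA (1 higher and 1 lower at an unadjusted p under 0.05). Of 6 ubiquitin ligases ABA raised 2 and lowered 1, and SA raised 1, OsPUB4 (0.51 ± 0.09, adjusted p = 0.00626).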

How the data were processed

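Total RNA (5 µg an array) was labelled with biotin for 16 Affymetrix rice arrays, per the labels' protocols. The deposited values are log2 numbers, 1 per probe set, which the authors made with GCRMA (background correction, normalization and summary), per the submitters' processing notes. Its version is not given in the sources used here, and the log base was taken from the range. Of 57381 probe sets, 123 Affymetrix controls and 64 reporters were left out. Probe sets were named from the platform annotation (22436 with 1 gene, 95 with several, 34663 with none given) and RefSeq synonyms.

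Probe sets above log2 5 in at least 2 arrays (24100, all 77 members among them) were fitted with limma 3.58.1 in R 4.3.3 (lmFit, eBayes with a trend) over 7 groups, the 4 water arrays as 1, with 9 residual degrees of freedom, two-sided. Benjamini-Hochberg adjustment ran over all of them. SE are limma's. The number of arrays limits the precision.

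The members and lists were chosen with earlier results of these data known. Matches of the list patterns to other gene types were dropped by name. Named members were those with a gene name, the 6 largest rises, those with the smallest p outside the rule, those near the margin, the largest ABA and SA leans, and those at least 1 log2 unit outside water under other hormones, with up to 3 genes a list. LOC4330678, LOC4330680, LOC4336875, LOC4344044, LOC4349188, LOC4347924 and LOC4329350 were named after their values were seen. So were the genes with paired probe sets and the paired probe sets with no gene given. Alternatives were normalization, filter, variance prior, replicate block, control set and leaving out arrays. Promoter motifs were not analysed here.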

Additional observations from a re-analysis of the deposited data

Results flagged for a closer look

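LOC4346856 had 1 water array far from the other 3. Control1 replicate 2 read 5.92, against 7.77, 7.8 and 7.77, and the gap was 0.986 of the range of the 4 arrays, above the critical value of Dixon's test at the 95% level. It was 1 of 28 named members examined, and chance flags about 5% of such groups. The water mean of this gene is lowered by that array, while the rule compared its ABA and SA arrays with the highest water array.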

How the results depend on the processing

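Counts of members called moved by over 1.5 times under these settings. A fit of only the groups compared gave 10 for IAA against BAP, and against water 12 for JA, 0 for ACC, 14 for IAA and 1 for BAP, with 15 listed genes for SA. These fits have fewer residual degrees of freedom. A floor of log2 7 gave 2 for ACC, and no filter gave 26 listed genes for SA. Control set 1 alone gave 17 for ACC, 118 listed genes for SA and 306 members, while control set 2 alone gave 38 for IAA, 16 for BAP and 197 members. A margin of 1.5 log2 units left 32 members. The cause of these moves was not tested.

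Leaving out 1 array at a time gave 2 to 7 for JA against ACC, 9 to 15 for IAA against BAP, 5 to 21 for JA against water, 0 to 4 for ACC, 13 to 32 for IAA and 1 to 6 for BAP. Listed genes ranged from 131 to 198 for ABA and from 12 to 53 for SA, and members from 82 to 124. JA against water fell to 12 without JA replicate 1 and 5 without JA replicate 2, IAA against water to 13 without IAA replicate 2, and BAP against water to 2 and 1 without BAP replicates 1 and 2. Listed SA calls fell to 12 without SA replicate 1 and to 28 without SA replicate 2, and the rule found 124 members without SA replicate 2. Listed SA calls turned from 26 higher and 16 lower to 55 and 63 against control set 1 alone, and to 25 and 28 without control2 replicate 2. Listed ABA calls went from 93 higher and 102 lower to 66 and 65 without ABA replicate 2. Of 45 named member results past the threshold, 0 changed sign but 27 lost the call under at least 1 setting: 24 when 1 array was left out (14 without JA replicate 2), 21 in the fit of the groups compared and 6 with no filter.

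The correlation of deviations between same-numbered replicates ran from -0.185 to 0.446 over 28 pairs of groups. It was above 0.1 in 10 of them and not in every pair, so the numbers were not taken to pair the samples. With the replicate number as a block, the counts were 12 for JA against ACC, 18 for IAA against BAP, and 21, 1, 22 and 5 for JA, ACC, IAA and BAP against water, with 196 and 41 listed genes for ABA and SA. Of the named results, 1 lost its call, SAT1 in IAA against BAP (adjusted p = 0.0561). The motif count in promoters was not run.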
